A study of Mus musculus with 18 samples.

Results

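The promoters of homeobox patterning genes that lie outside the Hox clusters were examined in an assay for accessible chromatin. They were taken by name: Lhx, Pax, Irx, Pitx, Otx, Gbx, Msx, Tlx, Barhl, Vax and Nkx genes with a number, without Lhx6, Lhx8 and Nkx2-1, which mark interneurons of the medial ganglionic eminence. This gave 58 promoter windows of 51 genes, of 26065 distinct windows in the table (26728 rows). The rule reads names only, but it was chosen with earlier results of these data known. The measurement was ATAC-seq, in which the transposase Tn5 inserts sequencing adapters into open DNA, so that reads at a promoter rise with its accessibility. Nuclei came from the central amygdala (CeA) and from prefrontal cortex, labelled as cortex. All mice were C57BL/6J, 2 to 3 months old. There were 18 libraries in 8 groups. SOM+ nuclei, gated on a nuclear H2B-GFP carried by somatostatin cells and of WT genotype, came from fear-conditioned and from control mice, with 2 libraries per treatment and region, of which number 1 is labelled male and number 2 female in every group. Bulk nuclei, gated only on the DNA stain NucBlue and labelled as control for treatment, came from mice with Erbb4 deleted in SOM+ cells (KO, 3 libraries per region) and from WT mice (2 libraries per region). The deletion touched only a fraction of the cells in a bulk library. The genotype field of the WT libraries also carries the KO entry, so WT rests on the sample titles. The sources used here do not name the drivers of the reporter and of the deletion, or say whether animals were pooled. Each library came from 50000 sorted nuclei, which the protocol calls technical replicates, so the spread between libraries may be technical, and p-values measure only that spread.

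Homeodomain proteins bind DNA through a conserved helical domain and switch on region-specific programmes as the embryo is laid out. LIM homeodomain factors (Lhx) act with the adaptor Ldb1 in forebrain and motor neuron identity, Pax factors pattern eye, neural tube and sclerotome, and Otx and Pitx factors, of the paired-like class, mark forebrain, midbrain and pituitary. Iroquois (Irx) and NK (Nkx) factors divide the neural plate and many organs into domains, and Gbx, Msx, Tlx, Barhl and Vax factors set boundaries and sensory or dorsal identities. Pax1 and Pax9 keep the paired domain of their family but lack a homeodomain. In tissues where they are silent, such genes are textbook targets of Polycomb repression, with promoters rich in unmethylated CG dinucleotides.

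Promoters from both ends of the comparison of SOM+ with bulk nuclei, with both regions pooled, are shown. In CeA alone, 0 members were called higher. In the pooled comparison Pitx3, Lhx4 and Nkx1-1 were more accessible in SOM+ control than in bulk WT nuclei, and Nkx2-9, Nkx3-2 and Pax9 less. Their sequences run 5′ to 3′ on the gene's strand from 250 bases before to 50 bases after the RefSeq start, in the build GRCm38.p6, with each CG dinucleotide in capitals. The counts were made on mm9 windows, which were matched to these sequences by gene symbol alone, so a sequence lies near the counted window's centre only if both sources use the same start.
Pitx3 (chr19:46148276-46148575, minus strand): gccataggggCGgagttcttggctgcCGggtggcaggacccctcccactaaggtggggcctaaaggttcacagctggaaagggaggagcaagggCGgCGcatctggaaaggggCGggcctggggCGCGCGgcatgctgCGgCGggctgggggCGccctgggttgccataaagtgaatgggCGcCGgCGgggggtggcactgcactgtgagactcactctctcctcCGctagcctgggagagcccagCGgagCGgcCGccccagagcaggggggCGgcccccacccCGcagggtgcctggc
Lhx4 (chr1:155741978-155742277, minus strand): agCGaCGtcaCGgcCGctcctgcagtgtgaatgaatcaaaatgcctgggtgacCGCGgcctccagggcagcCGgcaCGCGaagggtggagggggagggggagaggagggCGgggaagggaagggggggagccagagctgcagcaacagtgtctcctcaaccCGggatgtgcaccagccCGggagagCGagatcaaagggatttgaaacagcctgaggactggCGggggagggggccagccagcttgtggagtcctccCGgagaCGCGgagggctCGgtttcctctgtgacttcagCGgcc
Nkx1-1 (chr5:33434041-33434340, minus strand): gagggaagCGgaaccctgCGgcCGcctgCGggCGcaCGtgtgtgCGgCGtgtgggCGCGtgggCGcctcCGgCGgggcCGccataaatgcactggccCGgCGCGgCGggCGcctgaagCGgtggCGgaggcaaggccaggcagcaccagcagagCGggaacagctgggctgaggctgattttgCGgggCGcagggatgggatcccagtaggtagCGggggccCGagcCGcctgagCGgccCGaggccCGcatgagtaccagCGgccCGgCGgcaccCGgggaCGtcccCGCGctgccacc
Nkx2-9 (chr12:56613235-56613534, minus strand): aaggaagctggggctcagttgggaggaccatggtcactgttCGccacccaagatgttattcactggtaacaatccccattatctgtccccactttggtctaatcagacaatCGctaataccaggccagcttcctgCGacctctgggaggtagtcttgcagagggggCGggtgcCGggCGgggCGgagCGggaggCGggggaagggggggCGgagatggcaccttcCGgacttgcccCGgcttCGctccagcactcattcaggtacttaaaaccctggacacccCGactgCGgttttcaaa
Nkx3-2 (chr5:41764171-41764470, minus strand): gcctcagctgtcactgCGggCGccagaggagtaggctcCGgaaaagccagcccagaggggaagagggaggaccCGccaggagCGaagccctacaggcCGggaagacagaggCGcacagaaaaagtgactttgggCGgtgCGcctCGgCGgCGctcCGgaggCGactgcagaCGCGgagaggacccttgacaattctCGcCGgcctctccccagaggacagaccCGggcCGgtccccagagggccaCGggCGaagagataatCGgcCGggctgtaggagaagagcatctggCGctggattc
Pax9 (chr12:56695221-56695520, plus strand): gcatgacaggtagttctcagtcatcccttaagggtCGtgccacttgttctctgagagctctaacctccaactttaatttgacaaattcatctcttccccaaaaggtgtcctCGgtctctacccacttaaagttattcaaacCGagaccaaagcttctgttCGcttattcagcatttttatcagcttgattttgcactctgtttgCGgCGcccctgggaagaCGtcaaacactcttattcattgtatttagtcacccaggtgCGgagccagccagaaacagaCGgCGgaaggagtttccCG

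All of these sequences were 300 bases long. Nkx1-1 held the most CG dinucleotides of the 6, with 37 and a GC content of 75.7%, and Pax9 the fewest, with 11 and 47.0%. Pitx3 held 20 at 71.7% GC, Lhx4 19 at 66.3%, Nkx3-2 25 at 66.7% and Nkx2-9 15 at 59.3%. The RefSeq promoter table covered 36 of the 51 genes with 45 promoters. Their median GC content was 61.0%, against 52.7% over all 32851 promoters of that table, and their median observed over expected CG ratio was 0.748, against 0.384 over all promoters. The homeodomain core TAATTA, which reads the same on both strands, was present in 4 of the 45 (8.89%) and in 5.29% of all promoters in the table. A match of these letters is a description of the window and not a bound site.

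Depth and signal over background were highest in the cortex SOM+ libraries. Promoter counts per library were 2648959 to 7727263 in CeA SOM+, 9452310 to 14668694 in cortex SOM+, 2751769 to 7220446 in CeA bulk and 5146020 to 7939962 in cortex bulk nuclei. Signal over background, taken as the median count at ribosomal protein promoters over that at olfactory receptor promoters, was 17.4 to 35.3 in CeA SOM+, 53.8 to 73.5 in cortex SOM+, 10.2 to 18.9 in CeA bulk and 9.57 to 14.0 in cortex bulk libraries. Replicate libraries differed by more than sampling noise in every group (chi-square per degree of freedom 3.31 to 14.9), so none was counted as a duplicate. In 4 bulk libraries the reads at Y-linked promoters went against the labelled sex: KO 2 of CeA and of cortex, labelled male, had 0, and WT 1 of CeA and of cortex, labelled female, had 251 and 639. In both regions the Y-linked reads of KO 2 and WT 1 would match the labels if these 2 were exchanged. Whether libraries, and with them genotypes, were exchanged was not tested. KO against WT, the bulk WT levels and SOM+ against bulk WT nuclei rest on these genotype labels, which are used as given. Counts of calls and named calls on bulk nuclei are therefore also given without these 4 libraries where they change. In the SOM+ libraries the Y-linked reads matched the labelled sex. The defining markers of other cell types were present in both gates, as set out beside the results. Between SOM+ and bulk nuclei the gate, the mouse line and the preparation changed together and cannot be told apart.

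Every member window was covered in every library. The lowest member count was 9 reads in CeA SOM+, 15 in cortex SOM+, 10 in CeA bulk and 11 in cortex bulk libraries, and all 58 windows passed the filter on low counts in all fits. Levels are counts per 1000000 promoter reads (CPM) after trimmed-mean (TMM) scaling, and only per kb of window when genes are compared with each other. The members' median over the 18 libraries was 5.65 CPM per kb, against 9.77 over all windows, 2.91 over 42 Hox windows, 1.53 over 1102 olfactory receptor windows and 30.2 over 83 ribosomal protein windows. Of the 58, 52 lay under the median of all windows and 57 lay above the 95th percentile of the olfactory receptor windows. Most members were thus less open than the median window on this scale, with a spread from 2.38 to 19.4 CPM per kb. Their median percentile among all windows was 40.4. The summed level of all members was 550 to 707 CPM in CeA SOM+, 700 to 839 in cortex SOM+, 749 to 961 in CeA bulk and 761 to 832 in cortex bulk libraries.

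Among the LIM homeodomain genes, Lhx2, which directs cortical and eye development, had the most open window (18.5 CPM per kb at its second start, 9.02 at its first), followed by Lhx4, a pituitary and motor neuron factor (10.8 CPM per kb), and by Lhx9, the close relative of Lhx2 (8.20 and 5.32 CPM per kb). Pax6, needed for eye and dorsal forebrain, had the highest member window of all (19.4 CPM per kb at its middle start, with 8.31 and 6.24 at the others). Otx1, expressed in deep cortical layers, stood at 18.3 CPM per kb, while its paralogue Otx2, a head and midbrain factor, had 2.38, 4.28 and 3.40 CPM per kb at its 3 starts. The Iroquois windows spanned a narrow range, with Irx2 at 8.02, Irx1 at 7.07, Irx3 at 6.24, Irx5 at 6.17, Irx6 at 4.99 and Irx4 at 4.89 CPM per kb. Nkx1-1 (10.3) and Nkx6-2, a factor of oligodendrocytes and the ventral neural tube (9.50 CPM per kb), led the NK genes. Of the boundary and sensory genes, Tlx3, which selects excitatory identity in the spinal cord, had 9.82, and Gbx1 8.91 CPM per kb. The lowest windows after the first start of Otx2 were Nkx2-6 (3.04), the pancreatic gene Pax4 (3.05), Msx2 (3.10), the B cell gene Pax5 (3.12) and Nkx1-2 (3.14 CPM per kb). All 57 pairs of neighbours in this order had overlapping ranges over the 18 libraries. For 8 windows, bases are shared with the window of another gene, mainly an antisense transcript, and their reads cannot be assigned to either: the first window of Pax6, Nkx2-2, Vax2, Irx5, Lhx1, Irx2, the last window of Otx2 and Nkx2-6.

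**Figure D1:**
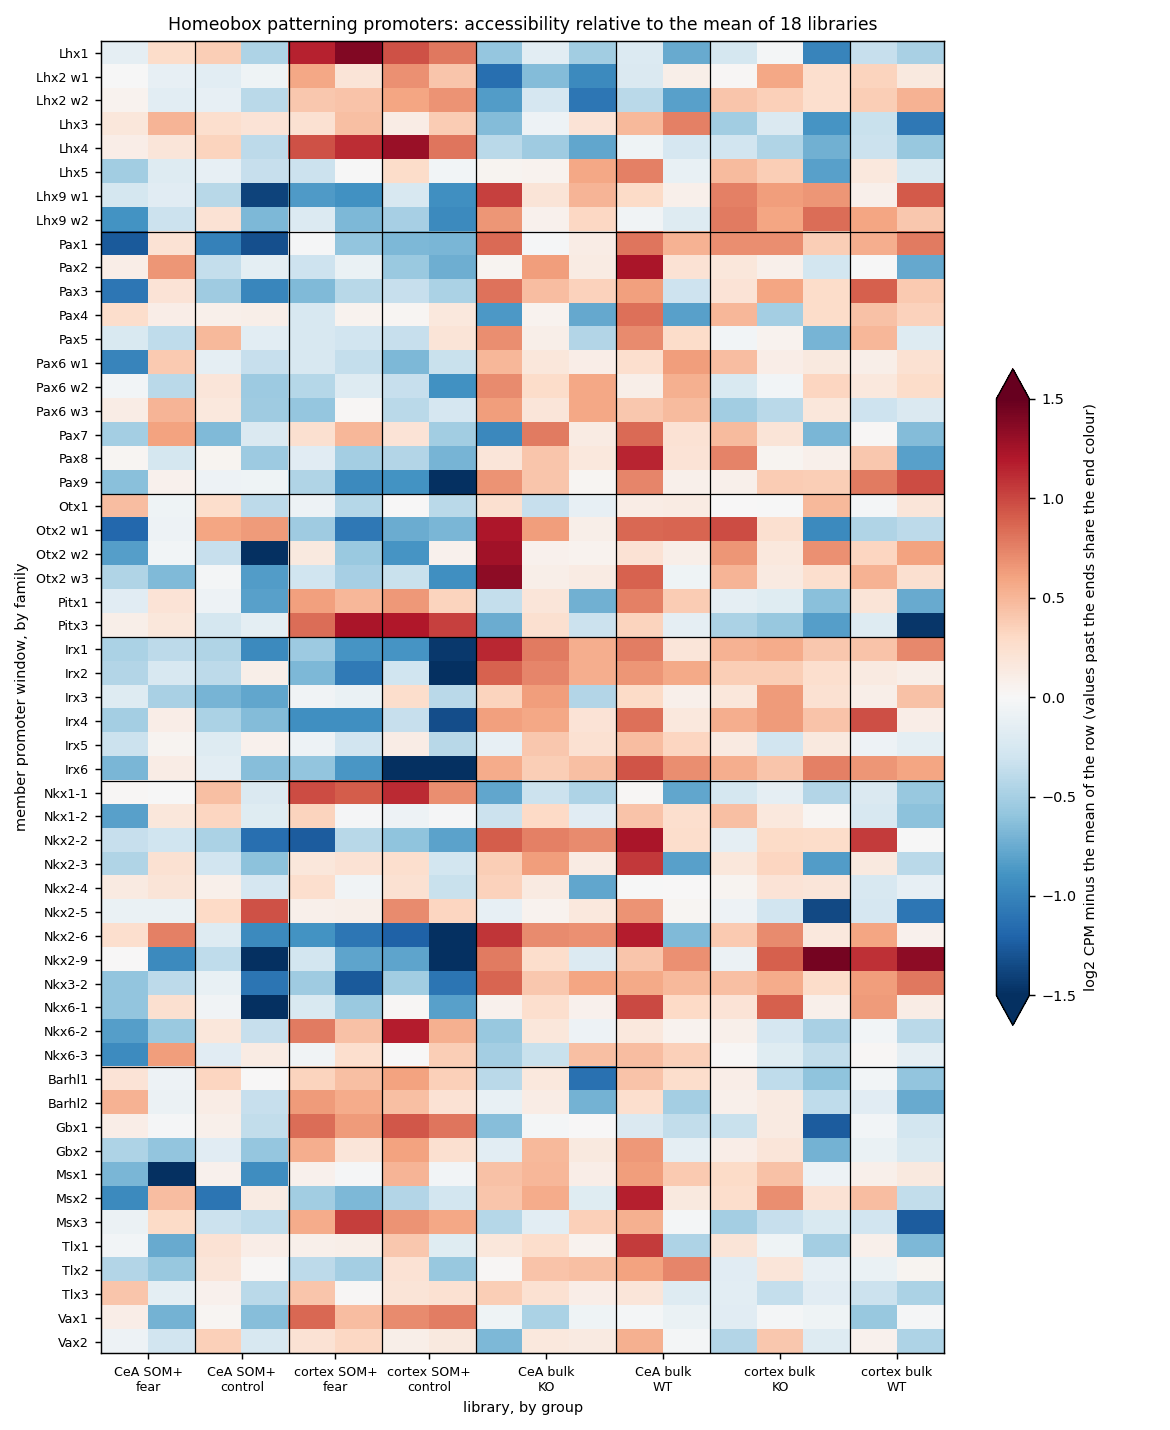
The heat map shows log2 CPM minus the row mean for 55 member windows (rows, by gene family) in the 18 libraries (columns, by group), with values past 1.5 in either direction drawn in the end colour. Irx6, Irx1 and Nkx3-2 run lower across the 8 SOM+ columns than across the 10 bulk columns, and Pitx3, Lhx4 and Nkx6-2 are highest in the 4 cortex SOM+ columns.

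The comparison of SOM+ control with bulk WT nuclei pooled both regions, with 4 libraries on each side. Of the 58 windows, 25 were lower and 6 were higher in SOM+ nuclei (adjusted p under 0.05, edgeR quasi-likelihood test adjusted over all 25246 windows). Over all windows tested, 61.1% were called, 30.6% higher and 30.6% lower. The members' median log2 fold change was -0.31, against -0.07 over all windows. The groups did not overlap for 16 members, all lower in SOM+ nuclei, while over all windows 18.6% lay lower and 19.6% higher without overlap. The calls fell most often in the Iroquois genes (5 of 6 lower) and the Pax genes (7 of 11 lower, 0 higher). The split moved with the scaling: 29 lower and 3 higher by total count, where the median of all windows was -0.27, and 18 lower and 7 higher by cyclic loess. Without the 4 bulk libraries with discordant Y-linked reads, which leaves WT 2 of each region, 14 were lower and 7 higher. The calls that ended there were those of Irx3 and Irx4, Pax2, Pax3 and Pax8, Nkx2-6 and Nkx6-1, the second start of Lhx9, the last 2 starts of Otx2 and Msx2. Their log2 fold changes then ran from -0.92 for the second start of Otx2 to -0.096 for Pax8. The 6 higher became 3 without cortex bulk WT 2.

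All Iroquois calls were decreases. Here and below, a value in parentheses with no unit is a log2 fold change, with ± its SE. Irx6 (chr8:95197188-95199187, mm9) had 7.91 and 5.66 CPM in CeA SOM+ control and 3.13 and 2.83 in cortex SOM+ control libraries, against 16.9 and 14.3 in CeA bulk WT and 14.0 and 13.3 in cortex bulk WT libraries. Every SOM+ library lay under every bulk library, at 4.88 ± 2.38 CPM in SOM+ and 14.6 ± 1.60 CPM in bulk nuclei (SD, n = 4 each), a log2 fold change of -1.68 ± 0.25 (SE) with an adjusted p of 2.48e-07. Irx1 (chr13:72100172-72102171, mm9) had 9.19 and 6.46 CPM in CeA SOM+ control and 6.79 and 4.61 in cortex SOM+ control libraries, against 21.4 and 14.3 in CeA bulk WT and 16.9 and 20.7 in cortex bulk WT libraries. Its groups were likewise apart (6.76 ± 1.88 CPM in SOM+ and 18.3 ± 3.34 CPM in bulk nuclei; log2 fold change -1.46 ± 0.22, adjusted p = 4.18e-07). Irx4, a gene of the cardiac ventricle, was lower too (log2 fold change -1.19 ± 0.26, adjusted p = 0.000183), as were Irx2 (-0.86 ± 0.22, adjusted p = 0.000864) and Irx3 (-0.63 ± 0.23, adjusted p = 0.0179). Irx5 did not pass, at 11.4 CPM in SOM+ and 13.6 CPM in bulk nuclei (log2 fold change -0.25 ± 0.22). These genes form 2 groups in the genome, Irx3, Irx5 and Irx6 on chromosome 8 (gaps of 554 and 314 kb between windows) and Irx1, Irx2 and Irx4 on chromosome 13 (gaps of 663 and 630 kb). Both groups held lower members and the called 5 were lower under total count and loess scaling as well. Without the 4 libraries with discordant Y-linked reads 3 remained called, with Irx4 at -0.80 (adjusted p = 0.0531) and Irx3 at -0.66 (adjusted p = 0.0665), and the Irx3 call also ended without CeA SOM+ control 1, cortex SOM+ control 2, CeA bulk WT 1 or cortex bulk WT 2.

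In the Pax family, Pax1 and Pax9, which pattern sclerotome and pharyngeal pouches, fell most. Pax1 had 4.34 and 3.50 CPM in CeA SOM+ control and 5.50 and 5.43 in cortex SOM+ control libraries, against 15.3 and 12.6 in CeA bulk WT and 12.8 and 15.0 in cortex bulk WT libraries. Its groups did not overlap (4.69 ± 0.956 CPM in SOM+ and 13.9 ± 1.42 CPM in bulk nuclei; log2 fold change -1.57 ± 0.28, adjusted p = 6.67e-06). Pax9 (chr12:57795458-57797457, mm9) had 10.5 and 10.5 CPM in CeA SOM+ control and 5.93 and 3.90 in cortex SOM+ control libraries, against 18.2 and 11.6 in CeA bulk WT and 18.8 and 21.7 in cortex bulk WT libraries. The highest SOM+ libraries, both of CeA, came close to the lowest bulk library, and the log2 fold change was -1.29 ± 0.24 (adjusted p = 1.21e-05). Also lower were Pax3, a neural crest and dorsal neural tube gene (log2 fold change -0.96 ± 0.28, adjusted p = 0.00300), the thyroid gene Pax8 (-0.72 ± 0.31, adjusted p = 0.0427) and the kidney and midbrain-hindbrain gene Pax2 (-0.64 ± 0.28, adjusted p = 0.0465). Pax6 was lower at its middle start (34.8 ± 11.3 CPM in SOM+ and 53.7 ± 7.59 CPM in bulk nuclei, log2 fold change -0.65 ± 0.16, adjusted p = 0.00049) and at its first (-0.65 ± 0.23, adjusted p = 0.0161). The third window had 13.6 ± 3.00 CPM in SOM+ and 17.5 ± 4.88 CPM in bulk nuclei (log2 fold change -0.30 ± 0.21, adjusted p = 0.223). The call at the first start ended without CeA SOM+ control 2, cortex SOM+ control 1, CeA bulk WT 2 or cortex bulk WT 2. Under loess scaling, and without the 4 libraries with discordant Y-linked reads, 4 Pax windows rather than 7 were lower, and Pax8 moved to -0.096 and Pax2 to -0.19 without those libraries.

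The NK genes moved both ways, with 6 of 13 lower and 2 higher, and their median log2 fold change was -0.32, or 0.01 under loess scaling. Nkx2-9, a floor plate gene under Sonic hedgehog control, changed most of all members. It had 5.87 and 2.69 CPM in CeA SOM+ control and 4.42 and 2.01 in cortex SOM+ control libraries, against 10.2 and 12.3 in CeA bulk WT and 16.4 and 19.4 in cortex bulk WT libraries. No SOM+ library reached a bulk library (3.75 ± 1.74 CPM in SOM+ and 14.6 ± 4.13 CPM in bulk nuclei; log2 fold change -1.98 ± 0.30, adjusted p = 4.21e-07). It lies 80.2 kb from Pax9 on chromosome 12 (chr12:57713272-57715271, mm9), so these 2 lower windows are neighbours. Nkx3-2, a gene of skeletal development, had 7.74 ± 2.66 CPM in SOM+ and 18.6 ± 1.69 CPM in bulk nuclei without overlap (log2 fold change -1.29 ± 0.22, adjusted p = 4.02e-06). Nkx2-2, a factor of oligodendrocyte precursors and the ventral neural tube, had 5.33 ± 1.01 CPM in SOM+ and 14.6 ± 5.79 CPM in bulk nuclei (-1.36 ± 0.26, adjusted p = 2.58e-05). Nkx2-6 (-1.33 ± 0.34) and Nkx6-1 (-1.002 ± 0.28), a motor neuron and beta cell gene, completed the decreases. The Nkx2-6 call ended under loess (-0.62), and its value was -0.76 without CeA bulk WT 1. The higher pair was Nkx1-1, with 25.8 and 16.2 CPM in CeA SOM+ control and 40.8 and 30.6 in cortex SOM+ control libraries, against 19.1 and 10.9 in CeA bulk WT and 16.2 and 12.7 in cortex bulk WT libraries, and the heart gene Nkx2-5. Nkx1-1 stood at 28.3 ± 10.2 CPM in SOM+ and 14.7 ± 3.64 CPM in bulk nuclei (log2 fold change 0.87 ± 0.20, adjusted p = 0.000247). Both cortex SOM+ libraries and CeA SOM+ control 1 lay above its bulk range, the cortex libraries by more. Nkx2-5 (12.8 ± 2.85 CPM in SOM+ and 8.31 ± 3.94 CPM in bulk nuclei, 0.70 ± 0.26, adjusted p = 0.0208) lost its call under total count scaling and without any one of 4 libraries (CeA SOM+ control 2, cortex SOM+ control 1, CeA bulk WT 2 and cortex bulk WT 2).

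The LIM genes split evenly, 2 higher and 2 lower of 8. Lhx4 (chr1:157588158-157590157, mm9) had 24.4 and 14.8 CPM in CeA SOM+ control and 47.7 and 33.9 in cortex SOM+ control libraries, against 18.6 and 16.2 in CeA bulk WT and 15.5 and 13.1 in cortex bulk WT libraries. Both cortex SOM+ libraries and CeA SOM+ control 1 exceeded the bulk range, the cortex libraries by more (30.2 ± 14.0 CPM in SOM+ and 15.8 ± 2.26 CPM in bulk nuclei pooled; log2 fold change 0.83 ± 0.19, adjusted p = 0.00023). Lhx1, which acts in head organisation and Purkinje cells, was higher by 0.88 ± 0.24 on the log2 scale (adjusted p = 0.00203), but by 0.59 with an adjusted p of 0.0728 without CeA SOM+ control 1. Lhx9 was lower at its first start (9.27 ± 3.11 CPM in SOM+ and 19.3 ± 5.93 CPM in bulk nuclei, -1.06 ± 0.22, adjusted p = 7.67e-05) and at its second (-0.63 ± 0.24, adjusted p = 0.0243). At the second start of Lhx9 the call ended under loess (-0.42), and the value was -0.45 without CeA SOM+ control 2. Of the paired-like windows, 4 of 8 were lower and 1 was higher. The lower ones included Otx2 (-0.86 ± 0.31 and -0.93 ± 0.32 at its last 2 starts). Both Otx2 calls ended under loess (-0.60 and -0.39), and without CeA bulk WT 1 the values were -0.80 and -0.58. The higher one was Pitx3, a gene of midbrain dopamine neurons and lens (chr19:46221816-46223815, mm9), with 12.1 and 13.2 CPM in CeA SOM+ control and 33.4 and 29.5 in cortex SOM+ control libraries, against 18.4 and 13.3 in CeA bulk WT and 12.8 and 5.27 in cortex bulk WT libraries. Its log2 fold change was 0.76 ± 0.22 (adjusted p = 0.00329), with the cortex SOM+ libraries highest, and the call ended under total count scaling (0.56, adjusted p = 0.0533) and without cortex bulk WT 2 (0.53, adjusted p = 0.0585). Among the remaining 12 genes Gbx1 was higher (0.59 ± 0.22, adjusted p = 0.0194) and Msx2 lower (-0.79 ± 0.31, adjusted p = 0.0278). The Msx2 call ended under loess (-0.21), and its value was -0.62 without cortex SOM+ control 2. The Gbx1 call ended under total count scaling (0.39), under loess (0.47) and without CeA SOM+ control 1, CeA bulk WT 2 or cortex bulk WT 2.

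**Figure D2:**
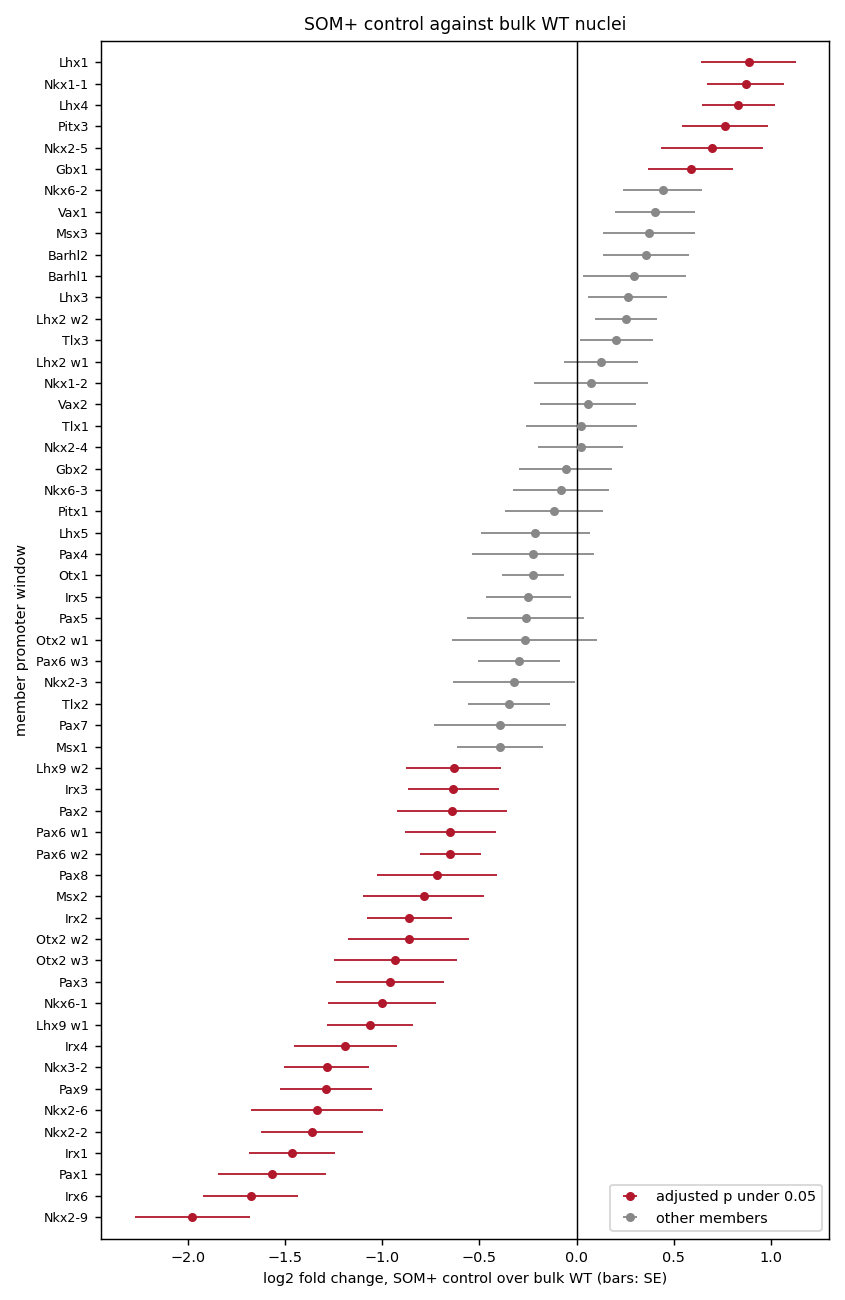
Points are log2 fold changes of SOM+ control over bulk WT nuclei for 55 member windows, in order of size, with bars of 1 SE, and red marks an adjusted p under 0.05. The values run from -1.98 for Nkx2-9 to 0.88 for Lhx1, and most Iroquois and Pax windows lie left of 0, down to -1.68 for Irx6.

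Region by region, the decreases appeared in both and the increases in cortex. In CeA, 12 windows were lower and 0 higher (edgeR, 23.2% of all windows called, 9.58% lower and 13.7% higher). There SOM+ and bulk libraries did not overlap for 34 lower and 1 higher member (32.7% and 29.8% of all windows). The largest change there was in Pax1, with 4.34 and 3.50 CPM in SOM+ control and 15.3 and 12.6 in bulk WT libraries (log2 fold change -1.80 ± 0.41, adjusted p = 0.00133). This count was 1 without the 4 libraries whose Y-linked reads went against the label, 7 under loess scaling, 2 without CeA SOM+ control 2 and 1 without CeA bulk WT 1. In cortex, 17 windows were lower and 12 higher (62.1% of all windows called, 31.5% higher and 30.6% lower), or 22 and 8 by total count. Without the 4 libraries with discordant Y-linked reads 12 were lower and 11 higher, and the calls of Vax1, Tlx3, Nkx2-2, Irx2, Irx4, Pax3 and the last start of Otx2 ended. The 12 higher became 6 without cortex bulk WT 2 and 8 without either cortex SOM+ control library, and the Nkx6-2 call ended without cortex SOM+ control 1 or cortex bulk WT 2. Without overlap, 23 members lay lower and 19 higher (41.3% and 39.5% of all windows). Pitx3 had 33.4 and 29.5 CPM in SOM+ control and 12.8 and 5.27 in bulk WT cortex libraries (log2 fold change 1.83 ± 0.31, adjusted p = 3.15e-06). Lhx4 was higher by 1.49 ± 0.26 on the log2 scale (adjusted p = 5.04e-06) and Nkx1-1 by 1.29 ± 0.27. Msx3, a gene of the dorsal neural tube, was higher by 1.34 ± 0.33, Nkx6-2 by 1.07 ± 0.28 and Vax1, a gene of the ventral forebrain and optic nerve, by 1.04 ± 0.28. Nkx2-9 stood at 4.42 and 2.01 CPM in SOM+ control and 16.4 and 19.4 in bulk WT cortex libraries (-2.54 ± 0.41, adjusted p = 1.41e-06), and Pax9 (-2.03 ± 0.33) and Irx6 (-2.18 ± 0.35) were also lower. In both regions 9 windows were lower, 75.0% of the 12 in CeA and 52.9% of the 17 in cortex, among them Irx1, Irx4, Irx6, the first start of Lhx9, Nkx2-2, Nkx2-9, Nkx3-2 and Pax1.

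The markers of other cells moved with this contrast. Of the marker lists, 9 of 9 GABAergic promoters were higher in SOM+ nuclei and 0 lower, 0 of 10 glutamatergic were higher and 9 lower, 7 of 12 oligodendrocyte, 7 of 9 astrocyte, 3 of 7 microglial and 2 of 7 vascular promoters were lower, and 1 astrocyte and 1 vascular promoter were higher. Of 8 somatostatin neuron markers 4 were higher and 1 lower, and Sst itself did not differ detectably (0.03 ± 0.23). The summed glutamatergic level was 96.2 to 118 CPM in CeA SOM+ and 122 to 180 in cortex SOM+, against 149 to 195 in CeA bulk and 451 to 578 in cortex bulk libraries. The oligodendrocyte sum was 166 to 182 and 162 to 178 CPM in the SOM+ sets (CeA, then cortex), against 270 to 297 and 299 to 405 in the bulk sets, and the astrocyte sum 119 to 138 and 117 to 144, against 189 to 213 and 225 to 271. The GABAergic sum was 572 to 673 and 719 to 789 CPM in CeA and cortex SOM+ libraries, against 418 to 617 and 189 to 209 in CeA and cortex bulk libraries, and the somatostatin sum 158 to 177 and 311 to 326, against 132 to 156 and 109 to 150. The microglial sum was 43.7 to 51.7 and 42.5 to 46.8 CPM in the SOM+ sets, against 50.6 to 84.0 and 50.8 to 75.8 in the bulk sets, and the vascular sum 70.8 to 79.6 and 69.6 to 75.6, against 76.9 to 115 and 75.5 to 93.5. Of 8 markers of neurons of neighbouring regions 2 were higher and 1 lower, and of 4 choroid plexus and ependymal markers 2 were higher and 1 lower. No marker was at 0 in any library. Their part in the members' differences, and that of the signal over background given above, was not tested. In bulk nuclei a lower share of a cell type and lower accessibility per cell cannot be told apart.

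Partners and regulators of these factors were also followed. Over all windows of this pooled comparison 30.6% were higher and 30.6% lower. Promoters of Polycomb subunits were higher in SOM+ nuclei in 12 of 20 cases, among them Suz12 (119 CPM in SOM+ and 39.9 CPM in bulk nuclei, log2 fold change 1.50) and lower in 3, among them Phc1 (-0.87). Their summed level overlapped in CeA, at 1144 to 1459 CPM in SOM+ and 1137 to 1367 in bulk libraries. In cortex it was 1918 to 1990 CPM in SOM+ and 1119 to 1317 in bulk libraries. Its part in the members' differences was not tested. Cofactors of homeodomain proteins were higher in 8 of 20 and lower in 9. The LIM adaptor Ldb1 was higher (133 CPM in SOM+ and 54.4 CPM in bulk nuclei, 1.31) and its paralogue Ldb2 lower (13.9 CPM in SOM+ and 39.8 CPM in bulk nuclei, -1.57), as were Meis1 (-1.14) and Meis2 (-1.02). Of 10 morphogen pathway genes 4 were lower, Gli3 (-1.74) and Bmp4 (-1.54) among them, and Ptch1 was higher (0.59). Of 25 homeobox genes of other families 10 were lower and 5 higher, with Isl2 at 33.7 CPM in SOM+ and 10.8 CPM in bulk nuclei (1.61). Of 42 Hox windows 17 were lower and 0 higher (median log2 fold change -0.62).

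CeA was next compared with cortex within SOM+ nuclei, pooling fear and control libraries (4 per region). In CeA, 13 members were lower and 8 higher (edgeR, 25157 windows tested, 48.3% called, 21.1% higher and 27.1% lower), with a median log2 fold change of 0.02 against 0.04 over all windows. For 13 members every CeA library lay under every cortex library, and for 0 the reverse (28.2% and 15.6% of all windows). The lower calls fell on 5 of 12 Gbx, Msx, Tlx, Barhl and Vax windows, 4 of 8 LIM, 2 of 13 NK and 2 of 8 paired-like windows, and the higher ones on 3 of 11 Pax, 2 of 6 Iroquois, 2 of 8 paired-like and 1 of 13 NK windows. By total count the split was 10 lower and 10 higher, with the median of all windows at 0.26. The 8 higher became 3 without CeA control 1, 5 without CeA fear 2, cortex control 2 or under loess, and 4 by DESeq2. In the same contrast 3 GABAergic promoters were higher and 4 lower, 2 somatostatin markers higher and 4 lower and 5 glutamatergic ones lower. Of the non-neuronal lists, 3 oligodendrocyte promoters were higher and 2 lower, 2 astrocyte higher and 2 lower, 3 vascular higher and 2 lower, 2 choroid plexus and ependymal higher and 1 lower, and 1 microglial higher. Of the markers of neighbouring regions 2 were higher and 2 lower, and signal over background was lower in CeA. Their part in the members' differences was not tested.

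Nkx6-2 (chr7:146767697-146769696, mm9) had 10.1 and 12.2 CPM in CeA fear, 20.04 and 14.0 in CeA control, 30.6 and 24.2 in cortex fear and 40.3 and 25.9 in cortex control libraries. All CeA libraries lay under all cortex libraries (14.1 ± 4.28 CPM in CeA and 30.2 ± 7.26 CPM in cortex nuclei, SD, n = 4 each; log2 fold change -1.08 ± 0.18, adjusted p = 9.15e-09). Pitx3 had 15.4 and 16.4 CPM in CeA fear, 12.1 and 13.2 in CeA control, 26.0 and 34.1 in cortex fear and 33.4 and 29.5 in cortex control libraries. The regions were again apart (14.3 ± 1.98 CPM in CeA and 30.8 ± 3.76 CPM in cortex nuclei; -1.07 ± 0.17, adjusted p = 9.32e-09). Lhx4 had 20.7 and 22.0 CPM in CeA fear, 24.4 and 14.8 in CeA control, 37.7 and 41.7 in cortex fear and 47.7 and 33.9 in cortex control libraries, with no overlap (-0.91 ± 0.16, adjusted p = 1.15e-07). Lower in CeA were also Lhx1 (-0.96 ± 0.19, adjusted p = 3.87e-06), Vax1 (-0.87 ± 0.19, adjusted p = 1.99e-05), Nkx1-1 (-0.79 ± 0.16, adjusted p = 7.27e-06) and Gbx1 (-0.79 ± 0.17, adjusted p = 2.51e-05). Msx3 (-0.80 ± 0.20), Msx1, a gene of craniofacial and dorsal midline tissue (-0.78 ± 0.22), Gbx2, which sets the midbrain-hindbrain boundary (-0.79 ± 0.21), and the hindlimb gene Pitx1 (-0.66 ± 0.21) followed. Lhx2 was lower at both starts. Its second window (chr2:38205828-38207827, mm9) had 36.1 and 31.2 CPM in CeA fear, 32.0 and 26.4 in CeA control, 46.2 and 46.8 in cortex fear and 52.5 and 55.5 in cortex control libraries, without overlap (-0.62 ± 0.15, adjusted p = 0.000187), and its first changed by -0.52 ± 0.18 (adjusted p = 0.00855). Of these, the second Lhx2 window moved to -0.40 by total count and -0.39 by loess, still called. The call at its first start ended under total count and loess and without CeA control 1, cortex control 1 or cortex fear 1. The Msx1 call ended under total count and without CeA control 2, CeA fear 2 or cortex control 1, and that of Pitx1 under total count and without CeA control 2 or cortex control 1.

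Each of the 8 members that were higher in CeA SOM+ nuclei overlapped the cortex libraries. Nkx2-6 had 6.24 and 8.88 CPM in CeA fear, 4.59 and 2.69 in CeA control, 2.81 and 2.47 in cortex fear and 2.26 and 1.77 in cortex control libraries (1.23 ± 0.38, adjusted p = 0.00334). Of its CeA libraries, control 2 alone fell within the cortex range, and the call ended under loess and without CeA control 1. Pax9 had 7.15 and 11.5 CPM in CeA fear, 10.5 and 10.5 in CeA control, 8.03 and 5.67 in cortex fear and 5.93 and 3.90 in cortex control libraries, and only 1 CeA library fell within the cortex range (0.78 ± 0.25, adjusted p = 0.00523). Irx6 (0.87 ± 0.30, adjusted p = 0.00958) was higher too, and lost its call under loess and without CeA control 1. Irx2 (0.61 ± 0.22), the third and middle windows of Pax6 (0.44 ± 0.19 and 0.34 ± 0.15) and Otx1 (0.37 ± 0.15) each lost the call without any one of 3 or more libraries.

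In bulk nuclei the CeA and cortex groups held 5 libraries each. In CeA, 3 member windows were lower and 4 higher (edgeR, 25196 windows tested, 16.9% called, 6.9% higher and 9.98% lower), with a median log2 fold change of 0.22 against 0.03 over all windows. The groups did not overlap for 2 higher and 1 lower member (4.75% and 5.39% of all windows). The second window of Lhx2 had 19.6, 29.4 and 16.5 CPM in CeA KO and 26.3 and 19.9 in CeA WT libraries, against 46.6, 44.7 and 41.4 in cortex KO and 45.1 and 50.0 in cortex WT libraries. Every CeA library lay under every cortex library (22.3 ± 5.33 CPM in CeA and 45.5 ± 3.12 CPM in cortex nuclei, SD, n = 5 each; log2 fold change -1.003 ± 0.16, adjusted p = 0.0002), and no alternative ended this call. The first window of Lhx2 was lower (-0.74 ± 0.19, adjusted p = 0.0103), but not without CeA WT 1, cortex WT 1 or the 4 libraries with discordant Y-linked reads. On the higher side, the third window of Pax6 (chr2:105521620-105523619, mm9) had 24.7, 18.1 and 23.9 CPM in CeA KO and 21.2 and 22.2 in CeA WT libraries, against 11.1, 12.1 and 18.0 in cortex KO and 12.9 and 13.7 in cortex WT libraries. CeA lay above cortex in every library, by 0.72 ± 0.18 on the log2 scale (adjusted p = 0.00974), and the call ended without any one WT library or without the 4 libraries with discordant Y-linked reads. Lhx3, a pituitary and motor neuron gene, was higher by 0.83 ± 0.22 (adjusted p = 0.0127), by 0.55 and no longer called without CeA WT 2, and not called without cortex WT 2. Irx2 (0.47 ± 0.16, adjusted p = 0.0425) and Pax2 (0.71 ± 0.24, adjusted p = 0.0482) passed narrowly and lost the call under most alternatives. The count of 7 became 12 by total count or without cortex KO 1, 3 without CeA WT 2, cortex WT 1 or cortex WT 2, and 2 without CeA WT 1 or without the 4 libraries with discordant Y-linked reads. Markers moved here too: 6 of 9 GABAergic promoters were higher and 9 of 10 glutamatergic ones lower in CeA. There 2 astrocyte promoters were higher and 2 lower, 2 oligodendrocyte ones lower, 2 somatostatin markers higher, and 1 vascular and 1 choroid plexus and ependymal marker higher, with 0 microglial ones called. Their part was not tested.

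Both windows of Lhx2 were lower in CeA in both gates, and Irx2 and the third window of Pax6 were higher in both. These are 15.4% of the 13 lower and 25.0% of the 8 higher windows in SOM+ nuclei. In bulk nuclei they are 66.7% of the 3 lower and 50.0% of the 4 higher windows. All but the second window of Lhx2 lost a call under some alternatives, as given above. The test of the difference between the gates' region differences (SOM+ minus bulk) called 13 members negative and 2 positive (edgeR, 41.5% of all windows called, 17.6% positive and 23.8% negative). Pitx3 differed most between the gates. It had 12.1, 14.3 and 16.4 CPM in CeA SOM+ and 26.0, 31.5 and 34.1 in cortex SOM+ libraries, against 8.71, 13.3 and 18.4 in CeA bulk and 5.27, 9.85 and 12.8 in cortex bulk libraries (lowest, median and highest), so that the cortex SOM+ libraries stood above all others. Its region difference was -1.07 ± 0.17 in SOM+ and 0.64 ± 0.23 in bulk nuclei, and the difference between these was -1.72 ± 0.30 (adjusted p = 1.29e-05). Nkx6-2 had log2 fold changes of -1.08 ± 0.18 in SOM+ and 0.21 ± 0.19 in bulk nuclei (difference -1.32 ± 0.28, adjusted p = 0.000179), and Msx3 -0.80 ± 0.20 in SOM+ and 0.66 ± 0.23 in bulk nuclei (difference -1.47 ± 0.31, adjusted p = 0.000236). Lhx4, Gbx2, Msx1, Pitx1, Vax1, Lhx1, Gbx1, Lhx3, Nkx1-1 and Tlx3 differed in the same direction, from -1.23 for Gbx2 to -0.65 for Tlx3. Pax9 (0.88 ± 0.32, adjusted p = 0.0242) differed the other way. By total count 8 members were negative and 4 positive, and Lhx1, Gbx1, Lhx3, Nkx1-1 and Tlx3 were not called. The calls of Gbx1, Lhx3, Nkx1-1 and Tlx3 ended under loess as well. Without CeA bulk WT 1 the values of Nkx1-1 and Tlx3 were -0.45 and -0.47. Without the 4 libraries with discordant Y-linked reads 7 were negative and 3 positive, and Gbx2, Msx1, Vax1, Lhx1, Nkx1-1 and Tlx3 were not called. The Pax9 call ended without any one of 5 libraries (CeA SOM+ fear 2, cortex SOM+ fear 2, cortex SOM+ control 2, CeA bulk WT 2 and cortex bulk WT 2).

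**Figure D3:**
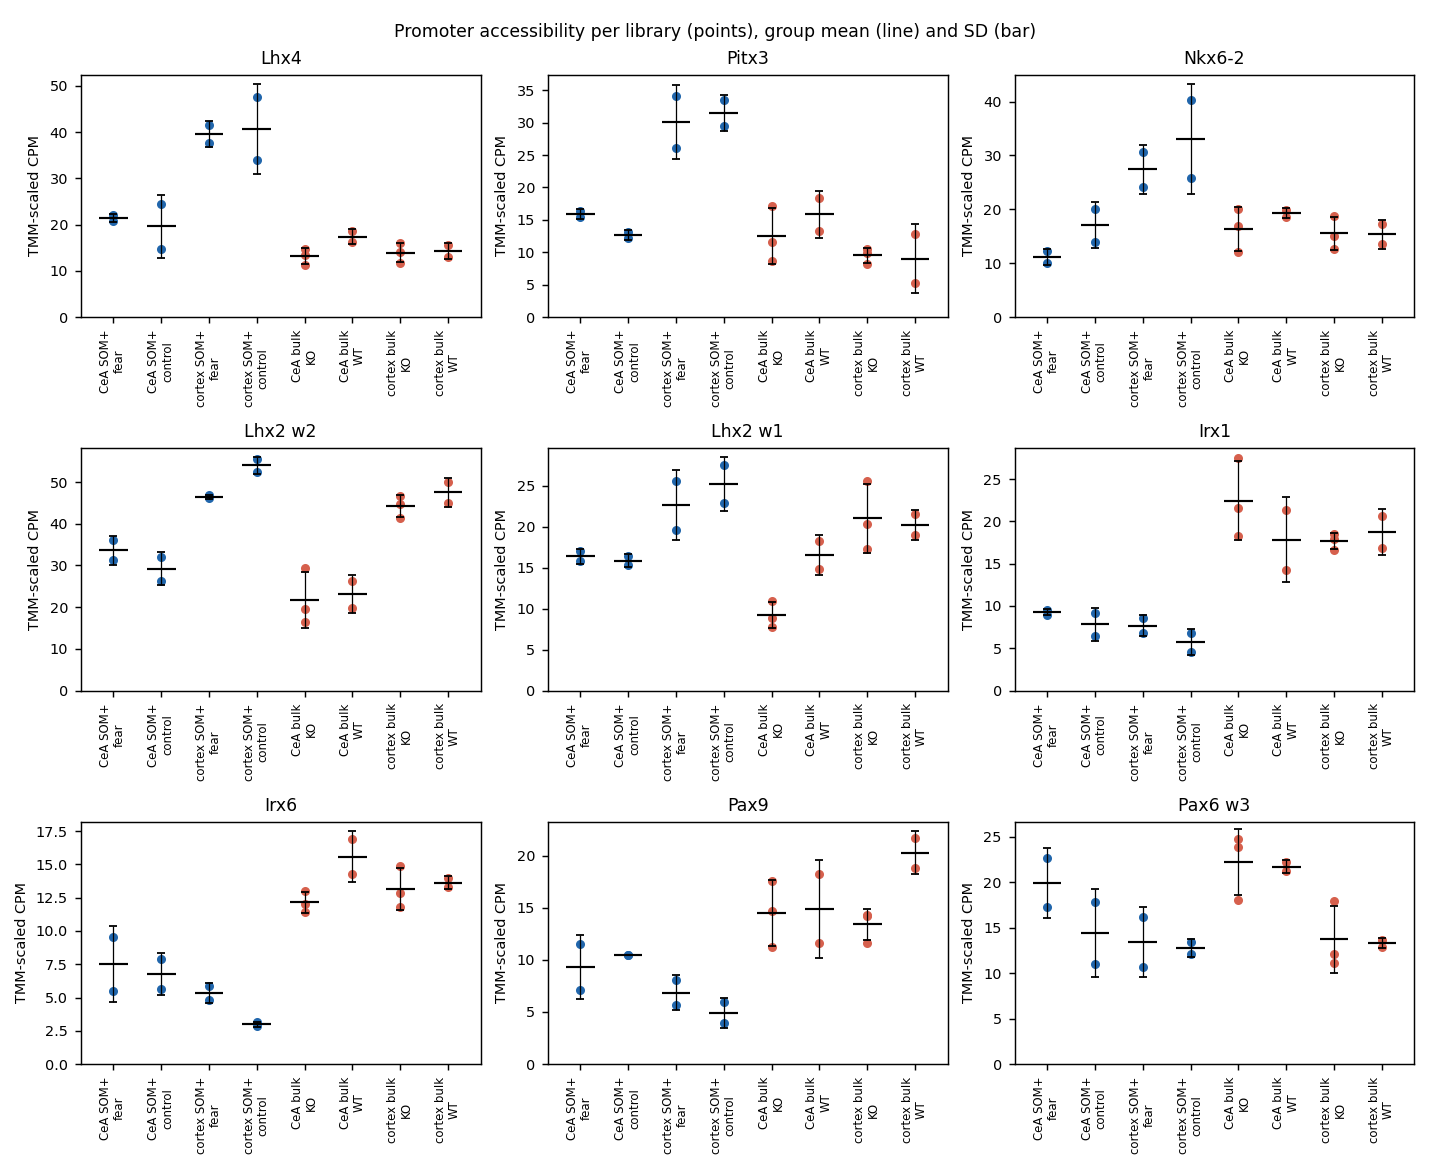
Points are TMM-scaled CPM in each library for 9 member windows, SOM+ in blue and bulk in red, with a line at each group's mean and a bar of 1 SD. Lhx4, Pitx3 and Nkx6-2 peak in cortex SOM+ nuclei, Irx1, Irx6 and Pax9 are lower in SOM+ than in bulk nuclei, and both Lhx2 windows are lower in CeA than in cortex in both gates.

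**Figure D4:**
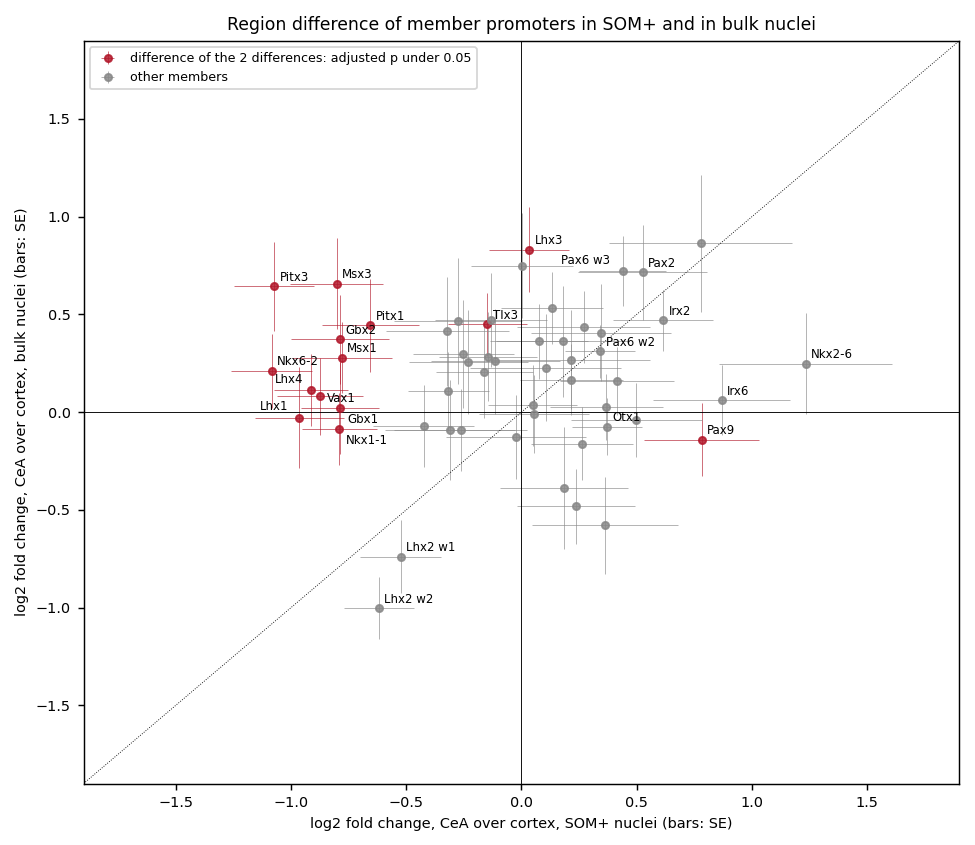
Each point is a member window, with the log2 fold change of CeA over cortex in SOM+ nuclei on the horizontal and in bulk nuclei on the vertical axis, bars of 1 SE and equality dotted. Red windows, whose 2 differences differ from each other at an adjusted p under 0.05, lie mostly left of the diagonal, with Pitx3 and Msx3 farthest, and the second Lhx2 window is low on both axes.

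The companion genes of these factors were also compared by region in SOM+ nuclei. Over all windows of that comparison 48.3% were called, 21.1% higher and 27.1% lower in CeA. Of 20 Polycomb subunits 13 were lower in CeA and 1 higher. Of 20 cofactors 6 were higher, led by Meis2 (52.4 CPM in CeA and 16.3 CPM in cortex nuclei, 1.73), and 8 lower. Of 10 morphogen pathway genes 3 were higher and 2 lower, with Shh at 18.3 in CeA and 49.9 CPM in cortex (-1.41). Of 25 homeobox genes of other families 4 were higher, Isl1 (1.64) and Six3 (1.54) among them, and 5 lower, including the cortical gene Emx1 (-1.05). In bulk nuclei Six3 (2.35) and Isl1 (0.87) were again higher and Emx1 (-1.50) lower in CeA. Of the 42 Hox windows 12 were higher and 0 lower in CeA SOM+ nuclei.

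The genes left out by name gave a reference point for the SOM+ gate. Lhx6, which cortical somatostatin interneurons keep expressing, had 19.6 and 22.7 CPM in CeA fear and 20.3 and 25.9 in CeA control SOM+ libraries, against 93.5 and 99.2 in cortex fear and 104 and 91.6 in cortex control SOM+ libraries. Its CeA libraries stood far under its cortex libraries (log2 fold change of CeA over cortex -2.10 ± 0.16), a gap larger than that of any member. Against bulk WT nuclei, with both regions pooled, Lhx6 was higher (1.23 ± 0.17). In cortex it had 963 and 776 unscaled reads in SOM+ control and 146 and 62 in bulk WT libraries. These SOM+ libraries were also deeper, with 10157955 to 10716940 promoter reads against 5146020 to 6072195, so the read counts overstate the gap. In CeA it had 159 and 96 unscaled reads in SOM+ control and 195 and 45 in bulk WT libraries, so these reads overlapped between the gates. Nkx2-1 (-0.94 ± 0.21) and Lhx8 (-0.69 ± 0.26), also markers of the medial ganglionic eminence, were lower in the pooled comparison.

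Fear conditioning was tested within each region of SOM+ nuclei, 2 libraries against 2. No member passed (0 of 58 in CeA, in cortex, for the average over regions and for the difference between regions), nor did any of the 25157 windows with edgeR, DESeq2 or limma, so the share of all windows called was 0%. At an unadjusted p under 0.05 there were 4, 1, 6 and 1 members in these 4 tests, against 2.38%, 1.14%, 2.11% and 1.47% of all windows. In CeA the smallest p-values belonged to Nkx6-2, with 10.1 and 12.2 CPM in fear and 20.04 and 14.0 in control libraries (-0.64 ± 0.27, adjusted p = 1.000), to Msx1 (-0.75 ± 0.34) and to Nkx2-5, with 7.89 and 7.89 CPM in fear and 10.5 and 16.4 in control libraries (-0.71 ± 0.33). In cortex they belonged to Irx6, with 5.85 and 4.81 CPM in fear and 3.13 and 2.83 in control libraries (0.85 ± 0.41, adjusted p = 1.000), to Nkx2-9 (0.75 ± 0.43) and to Lhx1 (0.41 ± 0.24). Averaged over regions Nkx2-5 came first (-0.57 ± 0.22), followed by Nkx6-2 (-0.45 ± 0.18) and Msx1 (-0.49 ± 0.22). For the difference between regions the first 3 were both starts of Lhx9, with opposite signs (0.89 ± 0.44 and -0.79 ± 0.51), and the first start of Otx2 (-1.16 ± 0.79). The 2 treatments did not overlap for 10 members higher and 6 lower in CeA (10% and 11.8% of all windows) and for 11 higher and 3 lower in cortex (12.6% and 14% of all windows).

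The Erbb4 deletion was tested in bulk nuclei, 3 KO against 2 WT libraries per region, with labelled sex in the fit. The bulk libraries labelled female were WT 1 of each region alone, so the sex term takes much of WT 1 out of the comparison, and it rests on labels that the Y-linked reads go against. The Erbb4 promoter window had 28.8, 32.9 and 39.6 CPM in CeA KO and 35.2 and 37.5 in CeA WT libraries, and 26.0, 36.3 and 41.4 CPM in cortex KO and 33.6 and 45.8 in cortex WT libraries. This does not check the deletion, since its position is not given and most cells in a bulk library keep the gene. No member passed in CeA, in cortex, for the average or for the difference between regions (0 of 58 in each with edgeR, DESeq2 and limma), and 0% of all 25196 windows were called. At an unadjusted p under 0.05 there were 2, 2, 1 and 2 members, against 2.96%, 3.27%, 3.46% and 2.34% of all windows. In CeA the first window of Lhx2 came first, with 7.79, 10.9 and 8.84 CPM in KO and 14.8 and 18.2 in WT libraries. The KO libraries all lay lower (-0.82 ± 0.31, adjusted p = 0.999), whereas the second Lhx2 window had 19.6, 29.4 and 16.5 CPM in KO and 26.3 and 19.9 in WT libraries, which overlap. Nkx2-6 (1.02 ± 0.46) and Pax3 (0.75 ± 0.38) were next. In cortex the smallest p-values were those of Pax8 (1.04 ± 0.43, adjusted p = 0.945), Barhl2 (0.78 ± 0.34) and Pax2 (0.85 ± 0.42). For the average they were those of Nkx2-6 (0.86 ± 0.36), Barhl2 (0.54 ± 0.27) and Nkx2-3 (0.75 ± 0.39), and for the difference between regions those of the first Lhx2 window (-0.86 ± 0.37), Lhx3 (-0.90 ± 0.43) and Nkx1-2 (-0.99 ± 0.54). Without the sex term the values were lower for Pax8 (0.37), Barhl2 (0.39) and Pax2 (0.32) in cortex, for Nkx2-6 (0.24) and Pax3 (0.30) in CeA, and for Nkx2-6 (0.16), Barhl2 (0.14) and Nkx2-3 (0.0082) in the average, while the first Lhx2 window kept -0.81 in CeA. Still 0 members were called without the term, or without the 4 libraries with discordant Y-linked reads. KO and WT did not overlap for 2 members higher and 8 lower in CeA (14.6% and 14.3% of all windows) and for 6 higher and 2 lower in cortex (6.59% and 4.28% of all windows). Without cortex KO 3, 985 of all windows were called in cortex, and still 0 members.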

How the data were processed

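The deposited values were raw read counts per promoter window in 18 ATAC-seq libraries, with no normalization by the authors (whole numbers, with totals that differ between libraries). A window spans 1 kb on each side of a start site in the build mm9. Per the submitters' processing notes, MACS2, Picard 1.88, Bowtie2, Trimmomatic 0.32 and bcl2fastq 2.16.0.10 were used, with no order given. No source used here names the counting program or says how Tn5 offsets, strand or duplicates were handled. Signal outside promoters was not analysed here, so totals are promoter counts and not sequencing depth.

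Of 26728 rows, 663 repeated another row's window and were left out. The test was that of edgeR 4.0.16 under R 4.3.3 (TMM scaling, filterByExpr with a minimum count of 10 and a minimum total of 15, quasi-likelihood F test, Benjamini-Hochberg adjustment over all windows tested, called at 0.05). There were 3 fits: 8 SOM+ libraries, 10 bulk libraries with labelled sex as a term, and all 18 libraries with that term for the comparisons of SOM+ with bulk nuclei. They gave 14 comparisons. Because of the sex term, a fold change from bulk nuclei can differ from the ratio of the printed means. Printed levels are counts per 1000000 of TMM-scaled totals (CPM) from the 18 libraries. A floor of 3 reads corresponds to 0.205 to 1.13 CPM and covers counting error only, and reads are not independent molecules.

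The members and the lists were chosen with earlier results of these data known. Windows named in the text were mainly those past the threshold with the smallest p-values per direction. For fear and KO they were the 3 with the smallest p-values per comparison. Also named were genes with the highest and lowest levels and some members chosen by name. Others named from the lists were chosen after their values were seen. Alternatives were DESeq2 1.42.0, limma 3.58.1 after cyclic loess, total count scaling, no filter, a replicate block, 1 window per gene, no sex term and each library left out. A further one, added after seeing the data, left out the 4 bulk libraries whose Y-linked reads went against the label. Some members and list genes are counted but not reported here by name. The fits were run on simulated counts with known changes and a fixed spread, for 1 comparison per fit. This checked the code only. It did not test the fear and KO comparisons, the sex labels or the spread of these libraries.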

Additional observations from a re-analysis of the deposited data

Results flagged for a closer look

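For 15 members the region difference in SOM+ nuclei, as a log2 fold change of CeA over cortex, was itself tested against that in bulk nuclei and differed (edgeR, adjusted p under 0.05). The 8 with the smallest p-values per direction are given by name where reported. The difference of the 2 differences was -1.72 for Pitx3, -1.47 for Msx3, -1.32 for Nkx6-2, -1.23 for Gbx2, -1.15 for Msx1, -1.12 for Pitx1, -1.07 for Lhx4 and -1.04 for Vax1. In these 8 CeA stood lower against cortex in SOM+ than in bulk nuclei. It was 0.88 for Pax9, where CeA stood higher against cortex in SOM+ than in bulk nuclei. Signal over background also differed between regions in SOM+ libraries (17.4 to 35.3 in CeA, 53.8 to 73.5 in cortex) and less in bulk libraries (10.2 to 18.9 in CeA, 9.57 to 14.0 in cortex), and its part was not tested. No labelled group held 4 or more libraries, so single outlying libraries were not sought.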

How the results depend on the processing

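A tally was made over the named windows with the smallest p-values per comparison. There 1159 of 1241 recomputed values kept their direction and their side of the threshold, 82 lost the call, 0 gained it and 0 reversed. The fear and KO windows in this tally were never called, so they had no call to lose. Weaker calls between SOM+ and bulk nuclei, such as those of Pax8 and Otx2, are not in it. Neither are the calls between the gates within CeA or within cortex. Many of these calls left out of the tally ended under alternatives. The count of 7 members called between CeA and cortex in bulk nuclei was 12 under total count scaling, 3 with 1 window per gene, 2 without the 4 bulk libraries whose Y-linked reads went against the label (chosen after seeing the data), and 2 to 12 with 1 library left out. The count of 12 between SOM+ control and bulk WT nuclei in CeA was 7 under cyclic loess, 1 without those 4 libraries, and 1 to 17 with 1 library left out. For these moved counts the cause was not tested, beyond the fewer libraries in the fits that leave some out. For the other comparisons the counts over both directions together stayed within 1.5 times under all alternatives run, but counts in 1 direction moved more. Between SOM+ and bulk nuclei the 25 lower were 14 without those 4 libraries, and the 6 higher were 3 under total count scaling or without cortex bulk WT 2. In cortex the 12 higher were 6 without cortex bulk WT 2. Between regions in SOM+ nuclei the 8 higher were 3 without CeA SOM+ control 1. For the difference between region differences the 13 negative were 7 without those 4 libraries and 8 under total count scaling, and the 2 positive ran from 0 to 5 with 1 library left out.

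No label says that a number marks an animal, litter or day. In SOM+ nuclei the number carries the labelled sex, and in bulk nuclei same-numbered libraries of the 2 regions shared their labelled sex and both had or both lacked Y-linked reads. The correlation of the deviations of same-numbered libraries was -0.012 to 0.19 in SOM+ nuclei, 0.38 between CeA and cortex WT, -0.19 to 0.26 between CeA and cortex KO and -0.33 to 0.41 between KO and WT, so the numbers were not treated as pairs. With the replicate block the counts were 21 in SOM+ nuclei between regions, 6 in bulk nuclei between regions, 30 between SOM+ and bulk nuclei (14 in CeA and 29 in cortex), 15 for the difference between region differences, and 0 for fear and for KO. With 2 or 3 libraries per treatment or genotype, and as few as 9 reads in a member window of the shallowest libraries, the SE of a member's log2 fold change was 0.15 to 0.79 for fear and 0.17 to 0.70 for KO, and the absence of calls does not show that the groups were alike.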
